A study of Mus musculus with 18 samples.

Results

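The 33 genes described here encode the transporters and enzymes that carry glucose through glycolysis, glycogen storage and the pentose phosphate pathway. They were taken from a list of named genes, which was chosen with earlier results of these data known. All 33 were found among the 40481 gene IDs of the count table and passed the filter on low counts. The study sequenced RNA of neutrophils from the lungs of C57BL/6 mice, either wild type (WT) or with a knockout of Cybb (CGD). Cybb encodes gp91phox, the oxidase subunit that passes electrons to oxygen, and mice without it model chronic granulomatous disease. Live CD45+ CD11b+ Ly6G+ cells were sorted by the surface protein CD101, and the labels call the CD101pos cells mature and the CD101neg cells immature. There were 6 groups of 3 libraries. WT and CGD naive CD101pos cells came from untreated males of 12 weeks. WT and CGD CD101pos and CD101neg cells came from females of 13 weeks, collected 24 h after 20 µg of zymosan, a yeast cell wall particle given into the airway. Zymosan and naive groups therefore also differed in sex and age, and these cannot be told apart. The labels do not say that the replicates are separate mice, so p-values measure the spread between these libraries, which may be technical. CPM below are counts per 1 M counts, scaled with TMM factors, given in the order of replicates 1, 2 and 3.

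Neutrophils rely on glycolysis more than on mitochondria for energy. Glucose enters through the transporters encoded by Slc2a1 and Slc2a3, is trapped by hexokinases, and is committed to glycolysis by phosphofructokinase. Some glucose-6-phosphate is diverted into the pentose phosphate pathway, which makes the NADPH that the phagocyte oxidase consumes, and some is stored as glycogen, which neutrophils use when glucose is scarce. Several steps have isoenzymes from separate genes. Those of phosphofructokinase are named after liver (Pfkl), platelet (Pfkp) and muscle (Pfkm). Many genes of glycolysis are known targets of the transcription factor HIF-1, whose core site reads ACGTG or GCGTG.

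The 250 bases before the annotated start of 4 genes are shown, because Pfkp, Hk2, Slc2a1 and Hk3 encode kinases or a transporter of the entry steps and passed a comparison between genotypes below; they were chosen after their values were seen. They were taken from RefSeq on GRCm38.p6, and each is printed 5′ to 3′ on the strand of its gene. Capitals mark ACGTG or GCGTG, and their reverse complements CACGT or CACGC, found by a search of both strands. An overlap of 2 matches occurs where CACGTG is present. The Pfkp window lies at chr13:6648772-6649021 on the minus strand, Hk2 at chr6:82774455-82774704 on the minus strand, Slc2a1 at chr4:119108495-119108744 on the plus strand and Hk3 at chr13:55021386-55021635 on the minus strand.
Pfkp: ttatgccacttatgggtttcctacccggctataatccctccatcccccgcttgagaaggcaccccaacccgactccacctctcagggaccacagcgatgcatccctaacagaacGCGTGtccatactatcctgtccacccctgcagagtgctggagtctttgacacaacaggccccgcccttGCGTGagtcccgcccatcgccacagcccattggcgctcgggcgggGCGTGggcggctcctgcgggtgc
Hk2: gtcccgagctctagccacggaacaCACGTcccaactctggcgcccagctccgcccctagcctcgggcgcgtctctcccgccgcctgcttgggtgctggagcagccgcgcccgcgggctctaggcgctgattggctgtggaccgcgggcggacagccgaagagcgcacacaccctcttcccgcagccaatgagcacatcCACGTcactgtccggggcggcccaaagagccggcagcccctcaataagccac
Slc2a1: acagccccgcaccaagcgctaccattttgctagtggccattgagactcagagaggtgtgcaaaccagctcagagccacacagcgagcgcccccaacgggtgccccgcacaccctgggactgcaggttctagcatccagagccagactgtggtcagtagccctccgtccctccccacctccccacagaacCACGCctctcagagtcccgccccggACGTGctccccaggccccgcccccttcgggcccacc
Hk3: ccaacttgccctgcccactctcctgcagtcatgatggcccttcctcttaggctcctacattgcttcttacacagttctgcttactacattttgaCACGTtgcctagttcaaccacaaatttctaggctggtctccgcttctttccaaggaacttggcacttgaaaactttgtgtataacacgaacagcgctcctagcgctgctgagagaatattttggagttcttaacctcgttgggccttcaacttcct

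The Pfkp window held 3 GCGTG matches and no ACGTG, and the Hk2 window held 2 ACGTG matches. Slc2a1 had 1 of each, and Hk3 had 1 ACGTG. Promoters in the RefSeq table were found for 32 of the 33 genes, all but Slc2a3, with 46 promoters in all. ACGTG occurred in 16 of these 46 promoters (34.8%) and in 16.6% of all 32851 promoters. GCGTG occurred in 25 (54.3%) against 28.2%. Either occurred in 35 (76.1%) against 38.6%. The E-box CACGTG, which contains ACGTG on both strands, occurred in 4 (8.7%) against 6.02%. These matches are letters in a window, and binding was not measured. Promoters of the 33 genes were not matched to all promoters in base composition.

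The libraries held 33.7 to 67.9 M counts, of which the 33 genes took 1.29% to 2.17%. Replicates of a group correlated at r = 0.958 to 0.981 across the 16575 genes tested (log CPM; genes are not independent replicates). Cybb was at 126 to 283 CPM in WT libraries and at 29.6 to 59.5 CPM in CGD libraries, with no overlap. Cd101 mRNA was at 322 to 451 CPM in WT zymosan CD101pos and 156 to 185 CPM in WT CD101neg cells, but at 95.9 to 112 CPM in CGD CD101pos and 47.3 to 82.0 CPM in CGD CD101neg cells, so that CGD CD101pos cells held less Cd101 mRNA than WT CD101neg cells. All 14 neutrophil marker genes, such as S100a8 and Ly6g, were detected in every group, with a summed level of 30705 to 141937 CPM. Markers of other cells were also detected. Those of alveolar macrophages summed to 160 to 180 CPM in WT naive, 184 to 461 CPM in CGD naive, 416 to 732 CPM in WT zymosan CD101pos, 475 to 754 CPM in WT CD101neg, 2501 to 2910 CPM in CGD zymosan CD101pos and 1730 to 2742 CPM in CGD CD101neg cells, and none of the 15 was at 0 throughout any group. Most of that sum in the CGD zymosan libraries came from the marker Chil3, and sums of the zymosan groups without Chil3 are given below. Markers of monocytes and interstitial macrophages summed to 1414 to 2616 CPM over all libraries. Those of B cells summed to 306 to 462 CPM in naive libraries, 123 to 179 CPM in WT zymosan and 29.0 to 67.2 CPM in CGD zymosan libraries, where Pax5 was at 0 in all CD101neg libraries. In bulk RNA, fewer cells of a type and less RNA per cell cannot be told apart.

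Levels were compared between genes as RPKM, CPM divided by the length of the exons in kilobases, with lengths from GENCODE M21, since the authors' annotation is not given in the sources used here. The range of the 6 group means was 710.1 to 1462 RPKM for Taldo1 (transaldolase, of the non-oxidative pentose phosphate branch), 503 to 1200 for Pkm (pyruvate kinase) and 372 to 665 for Aldoa (aldolase). Gapdh, Eno1, Slc16a3 (the lactate exporter MCT4), Ldha (lactate dehydrogenase), Pgd (6-phosphogluconate dehydrogenase), Pygl (glycogen phosphorylase) and Slc2a1 followed, in order of the mean over groups, from 286 down to 103 RPKM. Many neighbours in that order had overlapping ranges of group means, such as Gapdh and Eno1. Among hexokinases, the Hk3 level exceeded those of Hk1 and Hk2 in every group: 40.5 to 85.1 RPKM for Hk3, 5.93 to 18.5 for Hk1 and 2.66 to 9.45 for Hk2. The level of Pfkp was 3.79 to 20.01 RPKM and that of Pfkl 3.68 to 12.6, and their order differed between groups: in WT CD101neg cells Pfkl was the higher, at 10.1 against 3.79 RPKM, and in CGD CD101neg cells Pfkp, at 20.01 against 12.6 RPKM. Pfkm was far lower, at 0.302 to 0.583. Slc16a1 (the monocarboxylate transporter MCT1), Rpia (ribose-5-phosphate isomerase) and Pdk1 (which restrains pyruvate dehydrogenase) were the lowest by the mean over groups, at group means of at most 0.509 RPKM, though Pfkm or Aldoc lay below some of them in single groups.

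The genotypes were compared first in CD101neg cells after zymosan. Pfkp, Hk1, Hk2, Slc2a1 and Pgam1 (phosphoglycerate mutase) rose in CGD cells, and Pgls (6-phosphogluconolactonase, of the oxidative pentose phosphate branch) and Gbe1 (glycogen branching enzyme) fell. These were 5 genes higher and 2 lower of 33, where 6.67% of all genes tested rose and 6.24% fell. The median log2 fold change was 0.25 over the 33 genes, 0.44 over the 14 neutrophil markers, none of which passed, and -0.08 over all genes. The part of the neutrophil markers in this and the later comparisons was not tested. The CGD libraries all lay above the WT libraries for 9 genes and all below for 3, as for 14.7% and 15.3% of all genes. Pfkp was at 50.8, 49.98 and 51.6 CPM in WT and 206, 257 and 341 CPM in CGD CD101neg libraries. Every CGD library stood above every WT library by a wide gap. The log2 fold change was 2.40 ± 0.20, adjusted p = 1.32e-06 (edgeR's quasi-likelihood test with Benjamini-Hochberg adjustment over all genes, as for all adjusted p-values below; ± is the SE).

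Of the 3 hexokinase genes, Hk1 and Hk2 rose and Hk3 did not pass. Hk1, the widely expressed isoenzyme bound to mitochondria, was at 61.9, 77.8 and 61.2 CPM in WT and 114, 152 and 209 CPM in CGD cells, with no overlap (log2 fold change 1.24 ± 0.22, adjusted p = 0.00143). Hk2, the inducible isoenzyme, was at 31.00, 23.02 and 28.99 CPM in WT and 46.2, 58.1 and 64.9 CPM in CGD cells, again with every CGD library above (log2 fold change 1.03 ± 0.21, adjusted p = 0.00379). Hk3, the isoenzyme typical of myeloid cells, was at 193, 406 and 341 CPM in WT and 232, 169 and 180.5 CPM in CGD cells. Its groups overlapped, with a log2 difference of -0.69 ± 0.25, adjusted p = 0.0699. The glucose transporter gene Slc2a1 was at 208 to 368 CPM in WT and 480.3 to 565 CPM in CGD cells, with no overlap (log2 fold change 0.76 ± 0.25, adjusted p = 0.0485). Slc2a3 did not pass, at a log2 difference of -0.16 ± 0.45.

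**Figure D1:**
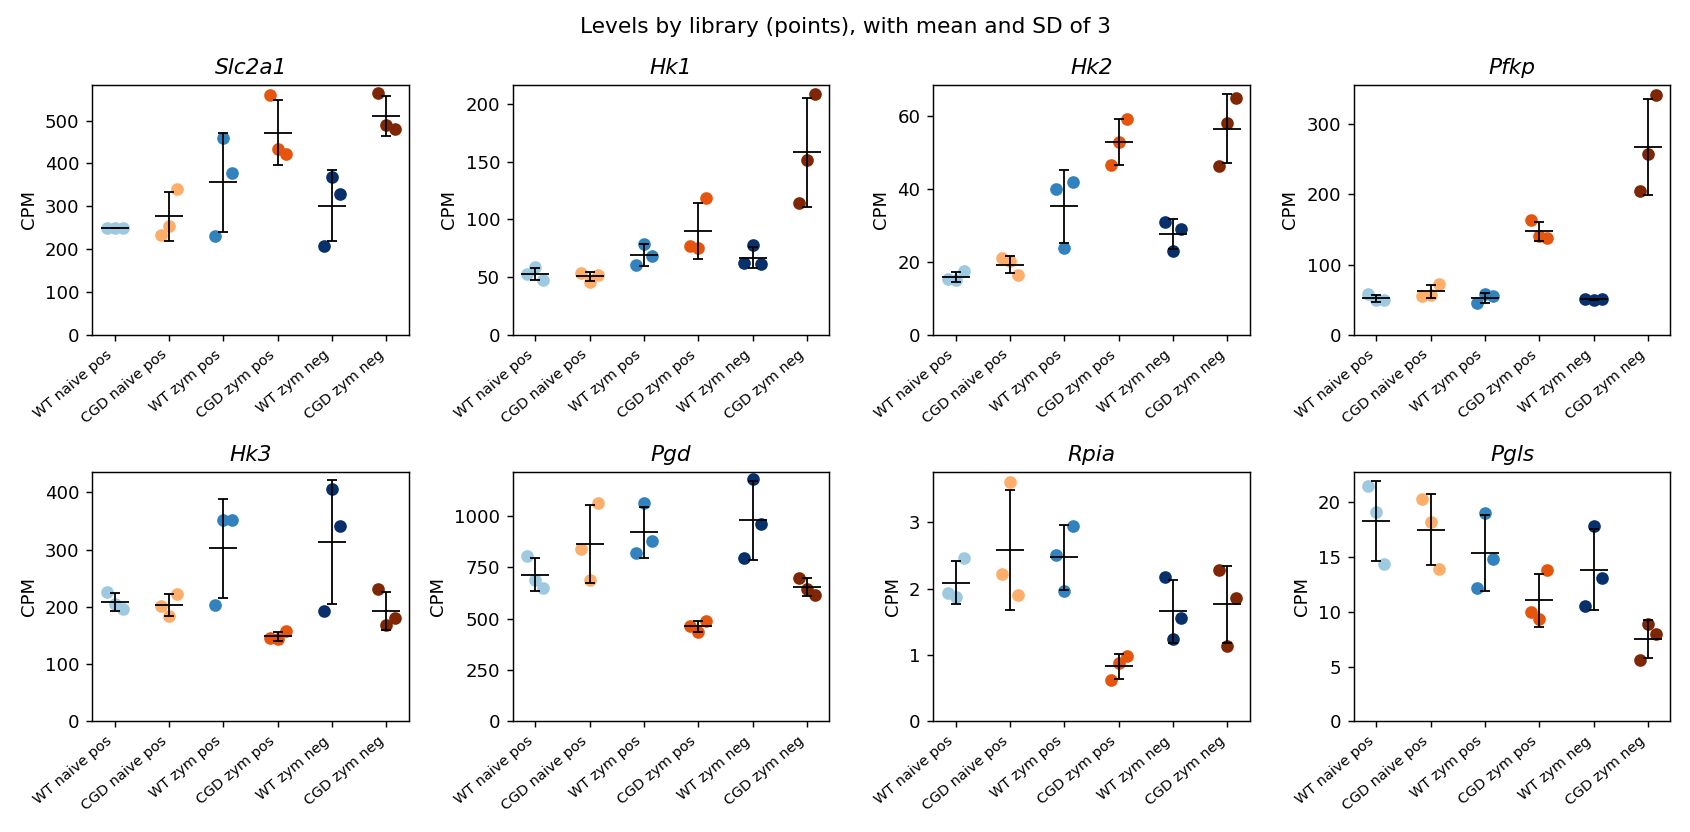
CPM of Slc2a1, Hk1, Hk2, Pfkp, Hk3, Pgd, Rpia and Pgls in each library (points) of the 6 groups (zym, zymosan; pos and neg, CD101pos and CD101neg), with the mean and SD of 3 libraries. Pfkp stands at 137 to 341 CPM in the CGD zymosan libraries and at 44.7 to 72.7 CPM elsewhere.

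Of the 5 genes of lower glycolysis, 1 passed. Pgam1 was at 30.5, 51.8 and 45.02 CPM in WT and 50.1, 74.2 and 97.04 CPM in CGD cells, where CGD replicate 1 lay below WT replicate 2 (log2 fold change 0.80 ± 0.24, adjusted p = 0.037). Reads of the copy Pgam1-ps2 were 2.14% of those of Pgam1. The other four, Gapdh, Pgk1, Pkm and Eno1, had log2 differences of 0.94, 0.82, 0.59 and 0.52 and did not pass. Scaled by library size alone these 5 genes had log2 differences of 0.07 to 0.51, still above 0, and none passed. Of the 7 pentose phosphate genes only Pgls passed, at 10.6, 17.9 and 13.1 CPM in WT and 5.58, 8.91 and 8.01 CPM in CGD cells, with all CGD libraries lower (log2 fold change -0.88 ± 0.26, adjusted p = 0.0286). Of the 3 glycogen genes, Gbe1 was at 15.2, 13.9 and 23.6 CPM in WT and 11.01, 11.4 and 9.69 CPM in CGD cells, without overlap (log2 fold change -0.72 ± 0.22, adjusted p = 0.0391). Pygl and Gys1 (glycogen synthase) had log2 differences of 0.27 and 0.64 and did not pass.

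Scaling by library size alone took the median log2 fold change of all genes from -0.08 to -0.57, and gave 2 of the 33 genes higher and 6 lower, beside 413 higher and 3572 lower among all genes. Under it Hk2, Slc2a1 and Pgam1 no longer passed (adjusted p = 0.18, 0.176 and 0.264), while Hk3, Pfkfb4, Pgd and Taldo1 passed as lower. The calls of Hk2, Slc2a1 and Pgam1 thus depended on the scaling. Log2 differences above 0 numbered 22 of the 33 genes with TMM factors and 14 with library size alone, under which some genes that did not pass changed direction, such as Pfkl (0.32 to -0.09), Aldoa (0.11 to -0.33), Slc16a3 (0.25 to -0.17) and Pygl (0.27 to -0.17). The count was 3 with WT replicate 3 or CGD replicate 3 left out, 4 without CGD replicate 2 and 11 (10 higher, 1 lower) without WT replicate 2. Pfkp, Hk1 and Hk2 kept their calls whichever library was left out. Slc2a1 lost its call when any library of the 2 groups except WT replicate 2 was left out (adjusted p = 0.077 to 0.189), and Pgam1 without WT replicate 1 or 3 or CGD replicate 2 or 3 (0.0719 to 0.173). Pgls lost it without WT replicate 2 or 3 or CGD replicate 1 or 3 (0.0527 to 0.112), and Gbe1 without WT replicate 3 or any CGD replicate (0.0754 to 0.211). With only the groups compared in the fit, Pfkp, Hk1 and Hk2 remained of the 7, and Slc2a1, Pgam1, Pgls and Gbe1 had adjusted p = 0.107 to 0.144. Of the alveolar macrophage markers, 1 of 15 rose and 8 fell in CGD CD101neg cells, and of those of monocytes and interstitial macrophages 0 of 14 rose and 9 fell, and of the 8 B cell markers tested 0 rose and 6 fell. Markers of dendritic cells fell for 3 of 7 genes, of fibroblasts for 3 of 9 and of T and NK cells for 2 of 11, and none of these rose. Their part in the result was not tested.

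**Figure D2:**
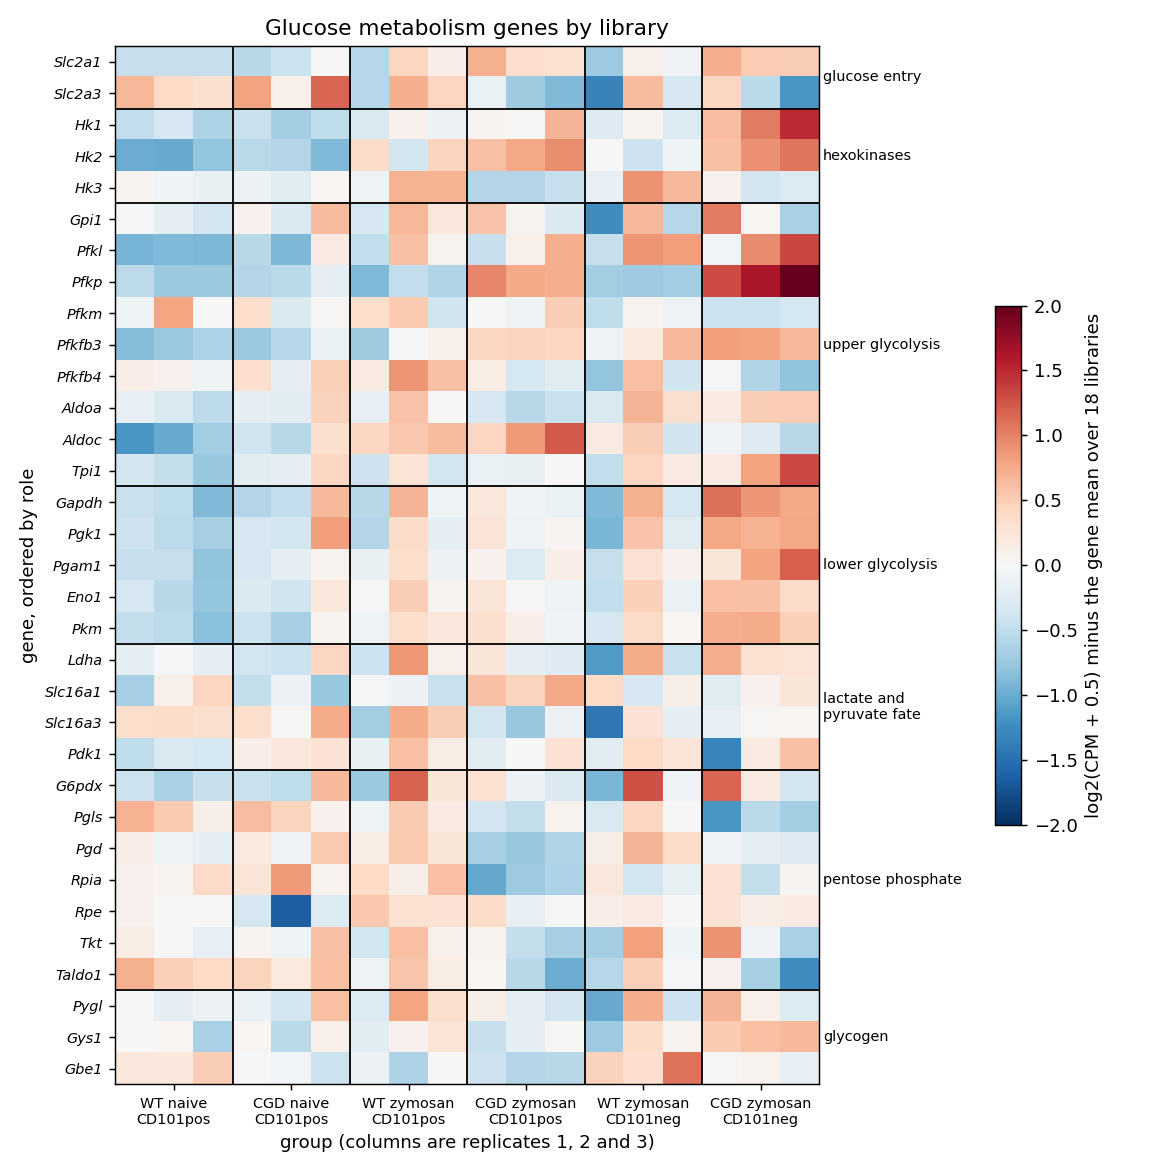
Each gene's log2 CPM (with a pseudocount of 0.5) less its mean over the 18 libraries, for the 33 genes ordered by role (rows) and the libraries by group (columns; zym, zymosan; pos and neg, CD101pos and CD101neg), with colours capped at 2 in either direction. Pfkp and Hk2 are high in the CGD zymosan libraries and Hk1 in the CGD CD101neg libraries. Hk3 and Pgd are low in CGD CD101pos libraries after zymosan.

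Between CGD and WT CD101pos cells after zymosan, Pfkp rose again, and the pentose phosphate genes Rpia and Pgd and the hexokinase gene Hk3 fell. That made 1 gene higher and 3 lower of 33, where 2.77% of all genes rose and 2.53% fell. The median log2 fold change was -0.23 over the 33 genes, 0.002 over the 14 neutrophil markers and 0.02 over all genes. Groups stood apart for 4 genes upward and 5 downward, as for 12% and 9.88% of all genes. Pfkp was at 44.7, 58.6 and 54.7 CPM in WT and 163, 141 and 137 CPM in CGD CD101pos libraries, with every CGD library above (log2 fold change 1.48 ± 0.19, adjusted p = 0.000279). Pgd, which makes NADPH in the oxidative branch, was at 821, 1060 and 875 CPM in WT and 464, 436 and 487 CPM in CGD cells. All CGD libraries stood below all WT libraries (log2 fold change -0.99 ± 0.20, adjusted p = 0.00653).

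Rpia, at low levels throughout, was at 2.51, 1.97 and 2.95 CPM in WT and 0.621, 0.877 and 0.992 CPM in CGD cells, with no overlap (log2 fold change -1.57 ± 0.34, adjusted p = 0.0109). Hk3 was at 203, 352 and 352 CPM in WT and 145, 144 and 158 CPM in CGD cells, all CGD libraries being lower (log2 fold change -1.02 ± 0.25, adjusted p = 0.02). All 7 pentose phosphate genes had log2 differences below 0, from -1.57 to -0.32, and 2 passed. The other five were G6pdx (-0.45; glucose-6-phosphate dehydrogenase, which opens the pathway), Pgls (-0.47), Rpe (-0.32), Tkt (-0.48; transketolase) and Taldo1 (-0.67). Scaling by library size alone took the median of all genes from 0.02 to -0.02 here. Rpia lost its call without WT replicate 3 or CGD replicate 2 (adjusted p = 0.0567 and 0.0514). Hk3 lost its call when any library of the 2 groups except WT replicate 1 was left out (0.0507 to 0.0994), and with only the 2 groups in the fit (0.0561).

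Hk1, Hk2 and Slc2a1 did not pass in CD101pos cells, at log2 differences of 0.39 ± 0.22, 0.58 ± 0.21 and 0.41 ± 0.25, and lower glycolysis lay between -0.13 and 0.15. Alveolar macrophage markers moved with this comparison. Of the 15, 5 rose and none fell, and of the monocyte and interstitial macrophage markers 5 of 14 rose and 1 fell, while of the 8 B cell markers tested 0 rose and 5 fell. Chil3 held most of the summed CPM of the alveolar macrophage list in the CGD zymosan libraries. Without Chil3, that list summed to 210 to 436 CPM in WT and 545 to 829 CPM in CGD CD101pos libraries. In CD101neg libraries it summed to 225 to 408 CPM in WT and 291 to 432 CPM in CGD cells. The part of these markers in the differences was not tested.

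**Figure D3:**
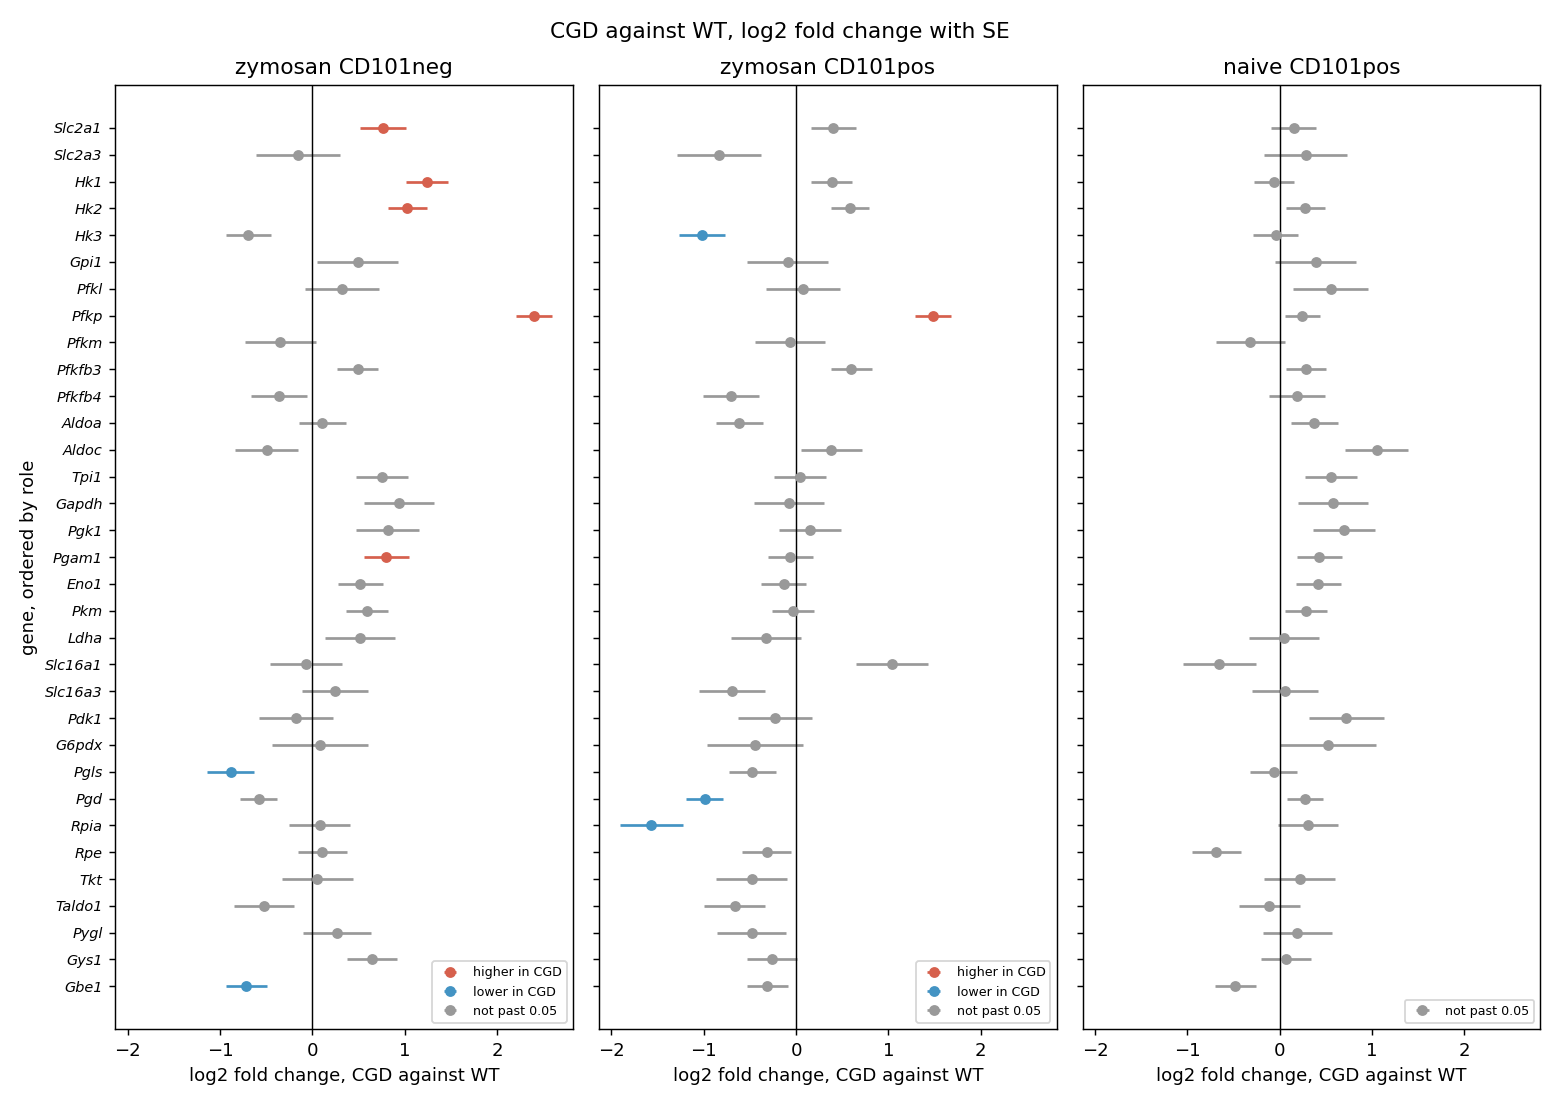
Log2 fold change of CGD against WT for the 33 genes in CD101neg and CD101pos cells after zymosan and in naive CD101pos cells, as points with bars of 1 SE. Red points passed the test as higher in CGD and blue points as lower (adjusted p under 0.05), and grey points did not pass. Pfkp stands furthest right after zymosan in both sorts.

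In naive CD101pos cells none of the 33 genes passed between CGD and WT, where 0.121% of all genes rose and 0.00603% fell. By edgeR, 3 of the 33 genes were under an unadjusted p of 0.05, and DESeq2 called 0. Pfkp was at 57.8, 49.2 and 49.3 CPM in WT and 54.99, 57.3 and 72.7 CPM in CGD naive libraries, which overlapped, at a log2 difference of 0.24 ± 0.19. Hk1 and Hk3 were likewise close, at -0.06 ± 0.22 and -0.05 ± 0.24. The median log2 difference was 0.27 over the 33 genes, 0.46 over the 14 neutrophil markers and -0.0005 over all genes. Groups did not overlap for 5 genes higher and 2 lower in CGD, as for 7.46% and 7.2% of all genes. CGD naive replicate 3 was the highest of its group for 26 of the 33 genes, and its summed neutrophil markers were 91296 CPM against 44157 and 39737 CPM in replicates 1 and 2; their part in the differences was not tested. The largest differences were Aldoc (1.05 ± 0.34, adjusted p = 0.444), Pdk1 (0.72), Pgk1 (0.69) and Rpe (-0.69).

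Zymosan and naive cells were compared within CD101pos cells of each genotype. In WT cells Hk2 and Aldoc rose and no gene fell, where 2.92% of all genes rose and 0.875% fell. Hk2 went from 15.2, 14.96 and 17.5 CPM in naive to 39.8, 23.7 and 41.95 CPM in zymosan libraries, without overlap (log2 fold change 1.15 ± 0.21, adjusted p = 0.00375). Aldoc, an aldolase of low level here, went from 0.847, 1.01 and 1.36 CPM to 3.51, 3.89 and 4.21 CPM, also without overlap (log2 fold change 1.86 ± 0.35, adjusted p = 0.00403). Pfkp did not pass in WT cells, at 0.01 ± 0.19. The median over the 33 genes was 0.43, against 0.55 over the 14 neutrophil markers and -0.03 over all genes. Of the 33 genes, 26 were above 0. Zymosan libraries all lay above naive libraries for 12 genes and below for 1, as for 11.7% and 12% of all genes. Under library size alone the median of the 33 genes was 0.08, that of all genes -0.33, and Hk2 had an adjusted p of 0.0945. WT zymosan CD101pos replicate 1 was the lowest of its group for 27 of the 33 genes.

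In CGD cells 7 of the 33 genes rose and 2 fell, where 7.13% of all genes rose and 5.71% fell. The risen genes span glucose entry (Slc2a1), phosphorylation (Hk1 and Hk2), phosphofructokinase and its activator (Pfkp and Pfkfb3), aldolase (Aldoc) and monocarboxylate transport (Slc16a1). The naive and zymosan groups of these 9 genes did not overlap. Among all 33, 8 lay wholly above and 8 wholly below the naive libraries, as for 16.1% and 15.8% of all genes. Hk2 went from 21.01, 20.2 and 16.5 CPM to 46.4, 52.7 and 59.1 CPM (log2 fold change 1.46 ± 0.21, adjusted p = 0.000155). Pfkp went from 54.99, 57.3 and 72.7 CPM to the level of 137 to 163 CPM given above (log2 fold change 1.26 ± 0.19, adjusted p = 0.000228). These 2 genes, Pgd and Rpia kept their calls under every alternative tried.

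Pfkfb3, which makes the activator of phosphofructokinase, went from 55.2, 62.1 and 83.6 CPM to 123, 126 and 124 CPM in CGD cells (log2 fold change 0.89 ± 0.22, adjusted p = 0.012). Its 3 zymosan libraries were nearly alike. Hk1 rose from 53.96, 45.8 and 51.98 CPM to 76.99, 75.5 and 118 CPM (log2 fold change 0.84 ± 0.22, adjusted p = 0.0173). The genes that fell were Rpia and Pgd, both of the pentose phosphate pathway. Their CGD zymosan CD101pos libraries are those compared with WT above, so these falls are not a separate observation. Rpia went from 2.22, 3.61 and 1.91 CPM to 0.621 to 0.992 CPM (log2 fold change -1.63 ± 0.34, adjusted p = 0.00355), and Pgd from 840.4, 687 and 1061 CPM to 436 to 487 CPM (log2 fold change -0.90 ± 0.20, adjusted p = 0.0049). Slc16a1, Aldoc and Slc2a1 rose 2.64-fold, 2.28-fold and 1.71-fold, with adjusted p = 0.0237, 0.0238 and 0.046.

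Several of these calls were lost when 1 library was left out. Slc2a1 lost its call when any library of the 2 groups except naive replicate 3 was left out (adjusted p = 0.0636 to 0.165), and Aldoc without naive replicate 1 or 2 or zymosan replicate 2 or 3 (0.064 to 0.114). Slc16a1 lost it without naive replicate 1 or 3 or zymosan replicate 3 (0.0758 to 0.102), Hk1 without naive replicate 2 or 3 or zymosan replicate 3 (0.0521 to 0.106), and Pfkfb3 without naive replicate 1 (0.0681). The count was 5, with 3 up and 2 down, without naive replicate 1 or zymosan replicate 3. Scaling by library size alone took the median of all genes from 0.0027 to -0.24 and gave 4 higher and 8 lower, with Hk1, Slc16a1 and Aldoc no longer called (0.108, 0.106 and 0.0516). Of the alveolar macrophage markers 10 of 15 rose with zymosan in WT and 11 of 15 in CGD cells, and none fell, and 7 of the 8 B cell markers tested fell in each. Those of monocytes and interstitial macrophages rose for 4 of 14 genes and fell for 0 in WT, and rose for 6 and fell for 2 in CGD cells. Those of epithelial cells rose for 0 of 10 genes in WT and 4 in CGD cells, of eosinophils for 2 of the 4 tested in WT and 0 in CGD cells, and of T and NK cells fell for 0 of 11 in WT and 2 in CGD cells. Their part was not tested, and sex and age cannot be told apart from zymosan. G6pdx and Pgk1 lie on the X chromosome, and neither passed.

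The zymosan against naive differences of the 2 genotypes were compared by the interaction. None of the 33 genes passed by edgeR, where 0.163% of all genes had a positive and 0.157% a negative interaction; 6 were under an unadjusted p of 0.05, and DESeq2 called 3. The lowest were Pfkp, at 1.24 ± 0.27, adjusted p = 0.0577, and Pgd, at -1.26 ± 0.28, adjusted p = 0.0627. Pfkp thus had log2 differences of 0.01 in WT and 1.26 in CGD cells, and Pgd of 0.36 and -0.90, without the difference passing this test. The genes called by DESeq2 were Pfkp with a positive and Pgd and Rpia with a negative interaction. By edgeR, Pfkp and Pgd passed without the low-count filter, and Pgd passed with library size alone. Sex and age changed with zymosan in both genotypes, so an interaction of genotype with sex or age cannot be told apart from this one.

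CD101neg and CD101pos cells were compared within each genotype after zymosan. In WT cells none of the 33 genes passed, where 0.41% of all genes rose in CD101neg cells and 0.0302% fell. By edgeR 2 were under an unadjusted p of 0.05, and DESeq2 called 1. Groups stood apart for 1 gene in each direction, as for 6.73% of all genes upward and 5.22% downward. The replicate numbers were taken to pair the WT libraries, and with that replicate block the picture differed. Then 2 genes were higher and 6 lower in CD101neg cells, where 4.78% of all genes rose and 5.63% fell. Gbe1 was at 10.01, 6.90 and 10.8 CPM in CD101pos and 15.2, 13.9 and 23.6 CPM in CD101neg cells. Every CD101neg library was above every CD101pos library, with a blocked log2 fold change of 0.90 ± 0.16 and an adjusted p of 0.00119, against 0.92 ± 0.22 and 0.0701 without the block.

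Pfkfb4, of the same enzyme family as Pfkfb3, was at 158, 259 and 210.4 CPM in CD101pos and 81.1, 212 and 106 CPM in CD101neg cells. The groups overlapped, but within each number the CD101neg library was lower (blocked log2 fold change -0.76 ± 0.14, adjusted p = 0.00216). Slc16a3 was at 776, 2103 and 1760 CPM and 465, 1536 and 1110 CPM, lower within each number again (-0.63 ± 0.14, adjusted p = 0.00629). Gpi1 (glucose-6-phosphate isomerase), Slc2a3, Pygl and Ldha also fell with the block, by 0.59, 0.55, 0.52 and 0.47 on the log2 scale (adjusted p = 0.0248 to 0.029), and Pfkfb3 rose by 0.45 (adjusted p = 0.0292). Of the 33 genes, 14 were lower and 3 higher in CD101neg cells within all 3 numbers, by CPM scaled with TMM factors. Without the block, the median log2 difference was -0.11 over the 33 genes, -0.25 over the 14 neutrophil markers and 0.02 over all genes. Library size alone took it to 0.005 over the 33 genes and 0.13 over all genes. Log2 differences above 0 numbered 9 of 33 with TMM factors and 17 with library size alone. The block was fitted with TMM factors only. The share of all genes with the same sign in all 3 numbers was not counted. The blocked count was 8 without number 2, 1 without number 1 and 0 without number 3, so it rested on numbers 1 and 3. Among all 16575 genes tested the counts were 1657, 561 and 303, in the same order. In the block fitted to the 6 WT libraries alone, 2 rose and 6 fell, where 930 of all genes tested rose and 1253 fell.

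**Figure D4:**
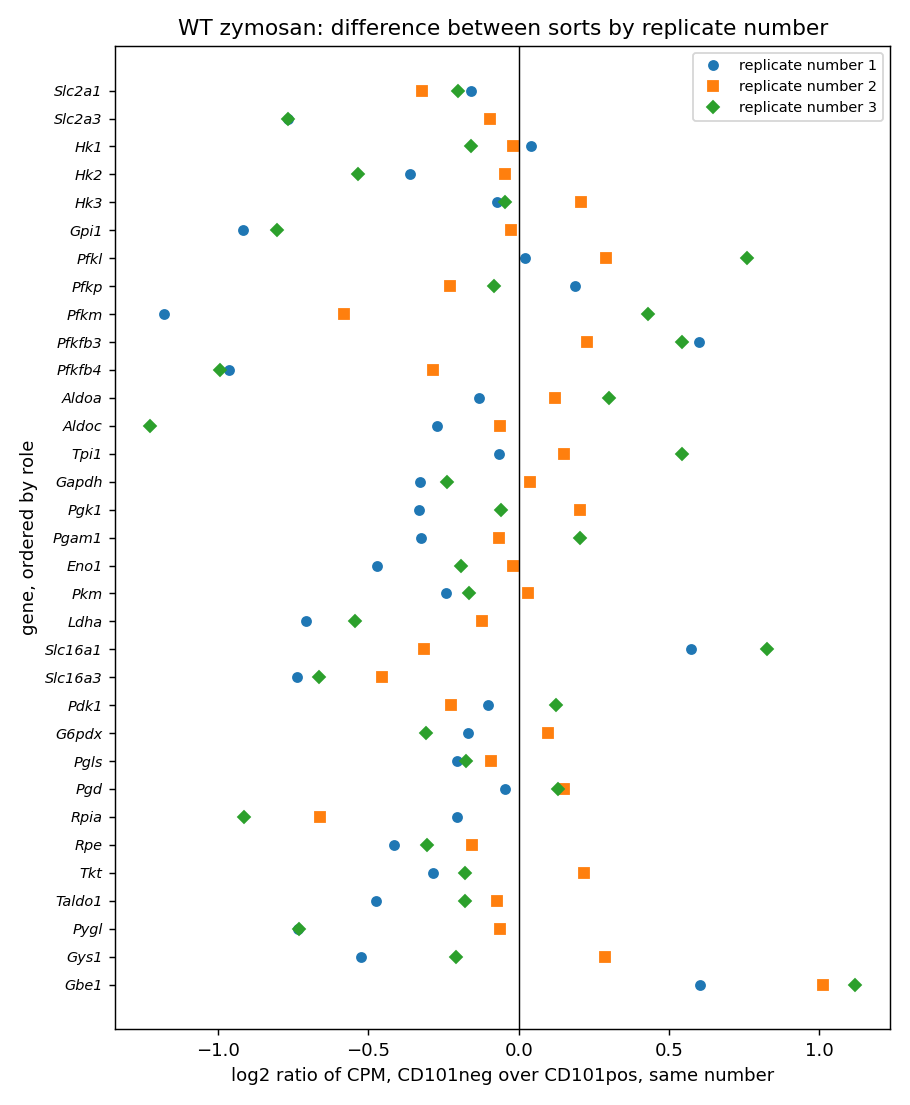
Log2 ratio of CPM in CD101neg over CD101pos WT zymosan libraries of the same replicate number, for the 33 genes, with 1 symbol per number. All 3 symbols lie above 0 for Gbe1 and below 0 for Pfkfb4 and Slc16a3.

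In WT zymosan cells the spread between replicates was itself shared by most of the 33 genes, and the order of replicates over all genes was not counted. Replicate 2 was the highest of its group for 25 of 33 genes in CD101pos and 27 in CD101neg cells, and replicate 1 the lowest for 27 and 25. Over the 33 genes the median ratio of the highest to the lowest library was 1.66 in WT CD101pos and 1.98 in WT CD101neg cells, against 1.24 in WT naive cells. G6pdx ranged most, at 103, 392 and 204 CPM in CD101pos and 91.8, 419.5 and 165 CPM in CD101neg cells. Summed neutrophil markers had the same order, at 46523, 106086 and 73997 CPM in CD101pos and 30705, 99594 and 48192 CPM in CD101neg cells. Their part in this spread was not tested. Pfkp had that order in CD101pos cells, at 44.7, 58.6 and 54.7 CPM, but lay within 49.98 to 51.6 CPM in CD101neg cells.

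In CGD cells after zymosan 3 genes were higher in CD101neg cells (Pfkp, Pgam1 and Hk1) and 1 lower (Aldoc), where 3.27% of all genes were higher and 4.08% lower. Pfkp was at 137 to 163 CPM in CD101pos and 206 to 341 CPM in CD101neg cells, without overlap (log2 fold change 0.86 ± 0.19, adjusted p = 0.0118). Aldoc was at 3.58, 4.95 and 6.59 CPM in CD101pos and 2.38, 2.03 and 1.57 CPM in CD101neg cells, also without overlap (log2 fold change -1.34 ± 0.34, adjusted p = 0.0241). Pgam1 was at 44.7, 34.8 and 46.6 CPM in CD101pos cells, below all CD101neg libraries (log2 fold change 0.81 ± 0.24, adjusted p = 0.0493). Hk1 overlapped, since CD101pos replicate 3 lay above CD101neg replicate 1 (log2 fold change 0.81 ± 0.22, adjusted p = 0.0346). The median over the 33 genes was 0.47, against 0.61 over the 14 neutrophil markers and -0.02 over all genes. The CD101neg libraries all lay above the CD101pos libraries for 15 genes and below for 4, as for 14.5% and 14.4% of all genes.

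Library by library, 21 of the 33 genes were higher and 5 lower in CD101neg cells within all 3 CGD numbers, although the CGD numbers were not taken as pairs. In WT cells 14 were lower and 3 higher. The shares of all genes were not counted, so these counts are not read as particular to the 33 genes. With the block used for WT cells, the 4 genes above kept their calls in CGD cells. Another 13 genes passed, all but Pgls as higher, where 11% of all genes were higher and 12.4% lower. Counts without the block in CGD cells are therefore not set against counts with it in WT cells. Each of the 4 calls made without the block was lost in some of the fits that left out 1 library. The count was 0 without CD101pos replicate 2 or CD101neg replicate 3, 1 without CD101pos replicate 3 or CD101neg replicate 2, and 2 without CD101pos replicate 1. The adjusted p of Pfkp was 0.0517 to 0.0741 without CD101pos replicate 2 or 3 or CD101neg replicate 3. For Aldoc it was 0.0654 to 0.109 without replicate 2 or 3 of either sort, for Hk1 0.0875 to 0.178 without CD101pos replicate 1 or 2 or CD101neg replicate 2 or 3, and for Pgam1 0.0819 to 0.228 when any library except CD101neg replicate 1 was left out. Scaling by library size alone took the median of all genes from -0.02 to -0.34 and left 0 higher and 1 lower. Alveolar macrophage markers fell for 11 of 15 genes and rose for none, and those of monocytes and interstitial macrophages fell for 8 of 14. Those of dendritic cells fell for 3 of 7 and of epithelial cells for 3 of 10. Their part was not tested.

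The difference between the sorts was compared between genotypes by the interaction, and none of the 33 genes passed by edgeR without a replicate block, where 0.181% of all genes had a positive and 0.67% a negative interaction. There were 5 under an unadjusted p of 0.05, and DESeq2 called 2. The lowest were Rpia, at 1.65 ± 0.48, adjusted p = 0.115, and Pfkp, at 0.92 ± 0.27, adjusted p = 0.117. The CD101neg against CD101pos difference of Pfkp was -0.05 in WT and 0.86 in CGD cells. With the block within genotype and replicate number, 13 of the 33 genes passed, all with a positive interaction, where 5.58% of all genes had a positive and 7.72% a negative one. Among them were Gapdh (1.06 ± 0.17, adjusted p = 0.000673), Ldha (0.94 ± 0.18, adjusted p = 0.00244), Slc16a3 (0.99 ± 0.19, adjusted p = 0.00298) and Pfkp (0.86 ± 0.23, adjusted p = 0.0195). The outcome of this comparison thus depended on the block, and the numbers were taken to pair WT but not CGD libraries. Without the block, the median interaction was 0.54 over the 33 genes, 0.55 over the 14 neutrophil markers and -0.01 over all genes. Library size alone took it to 0.11 over the 33 genes and -0.45 over all genes.

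The balance of isoenzymes was described as the log2 ratio of their counts within each library, in which library size cancels; lengths do not, so that only changes between libraries are read. Pfkp over Pfkl was 0.98 to 1.26 in WT naive and 0.49 to 1.22 in CGD naive libraries. After zymosan it was -0.26 to 0.45 in WT CD101pos and -0.78 to 0.61 in WT CD101neg libraries, against 0.84 to 2.29 in CGD CD101pos and 1.52 to 2.21 in CGD CD101neg libraries. The ratio was thus lower in all WT zymosan than in all WT naive libraries, and higher in each CGD than in each WT zymosan group. In the fall within WT cells Pfkl went from 24.2, 24.9 and 24.6 CPM in WT naive to 32.8, 69.97 and 48.9 CPM in WT zymosan CD101pos libraries, while the log2 difference of Pfkp was 0.01. Between genotypes after zymosan the log2 difference of Pfkl was 0.07 in CD101pos and 0.32 in CD101neg cells, against 1.48 and 2.40 for Pfkp.

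Hk1 over Hk3 was -2.36 to -1.76 in WT CD101pos, -2.48 to -1.64 in WT CD101neg, -0.94 to -0.42 in CGD CD101pos and -1.02 to 0.21 in CGD CD101neg libraries after zymosan, so that the CGD libraries all lay above the WT libraries. Hk2 over Hk3 divided the genotypes in the same way, at -3.89 to -2.35 and -4.14 to -2.64 in WT and -1.64 to -1.42 and -2.32 to -1.48 in CGD CD101pos and CD101neg libraries. Naive groups overlapped for both ratios. Slc2a1 over Slc2a3 was -0.94 to -0.62 in WT and 0.21 to 0.56 in CGD CD101pos libraries, without overlap, while the CD101neg groups overlapped. Pfkfb4 over Pfkfb3 was 1.09 to 1.52 in WT and -0.20 to 0.34 in CGD CD101pos libraries, again apart. In CD101neg libraries it was -0.45 to 1.00 in WT and -0.86 to -0.25 in CGD cells, which overlapped. Aldoc over Aldoa was -8.34 to -7.36 in CGD CD101pos and -10.37 to -9.43 in CGD CD101neg libraries, the highest and the lowest after zymosan by group mean.

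**Figure D5:**
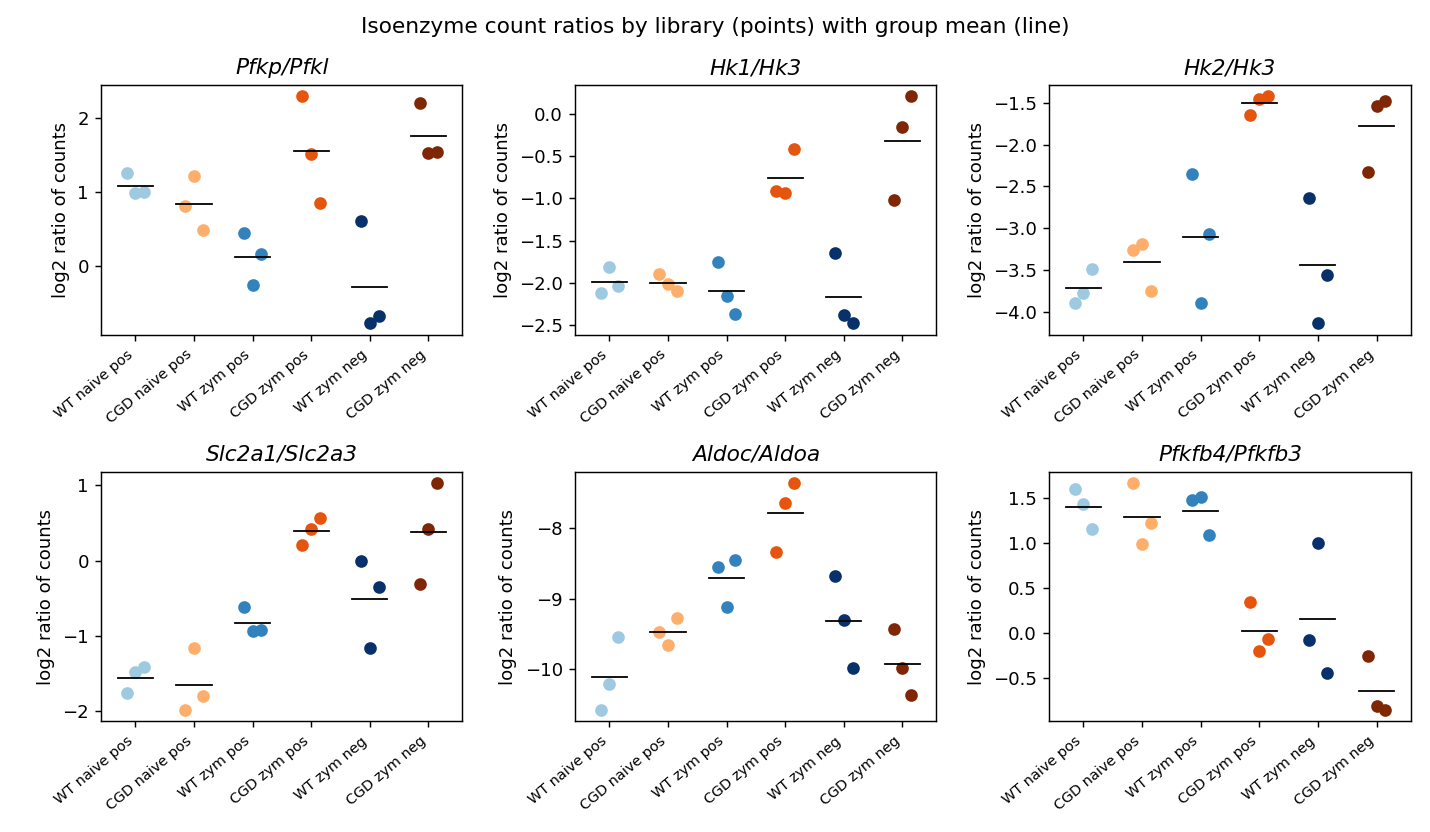
Log2 ratio of the counts of pairs of isoenzymes or transporters in each library (points) by group, with the group mean as a line. Pfkp over Pfkl, Hk1 over Hk3 and Hk2 over Hk3 lie higher in CGD than in WT zymosan libraries, with no such gap in naive libraries.

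Beyond the 33 genes, a list of 83 further genes of these pathways (other isoenzymes and transporters, gluconeogenesis, glycogen handling, pyruvate oxidation and regulators) was counted, of which 76 were tested. In CD101neg cells 7 were higher and 6 lower in CGD than in WT. Those with the lowest adjusted p were Fbp1 (fructose-1,6-bisphosphatase, which runs against phosphofructokinase), with a log2 fold change of 2.37 at group means of 0.448 and 2.31 CPM, Slc2a9 (a urate transporter of the glucose transporter family) with 2.04, Pygb (brain glycogen phosphorylase) with -1.38 and Pdp2 (a pyruvate dehydrogenase phosphatase) with -1.13. In CD101pos cells 3 were higher and 3 lower. Egln3, an oxygen sensor that is itself a HIF target, had a log2 fold change of 1.86, at 17.9 to 29.4 CPM in WT and 78.1 to 85.6 CPM in CGD libraries. Myc had 1.49, Fbp1 1.96 and Tfeb (a regulator of lysosome genes) -1.12.

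Zymosan against naive, 2 of the 76 were higher and 0 lower in WT CD101pos cells (Egln3, 2.36, and Bhlhe40, a transcriptional repressor, 2.77), and 6 were higher and 5 lower in CGD cells. The latter included Egln3 (3.21), Arnt (the partner of HIF-1α, 0.90), Tfeb (-1.27) and Eno3 (muscle enolase, -3.24). Eno3 was at 66.7 to 75.6 CPM in CGD naive and 3.92 to 13.8 CPM in CGD zymosan CD101pos libraries. Between the sorts 4 were higher and 3 lower in CGD CD101neg cells, led by Sp1 (a general transcription factor, 0.78), Slc37a2 (a sugar phosphate exchanger, 2.29), Pcx (pyruvate carboxylase, -1.67) and Hif1an (which inhibits HIF, 0.59), and 0 passed by edgeR in WT cells, with 6 under an unadjusted p of 0.05 and 0 by DESeq2. Also by edgeR, 0 passed between genotypes in naive cells (4 unadjusted, 0 by DESeq2), in the interaction with subset (14 and 3) and in that with zymosan (9 and 2). The shares of all genes given above for each comparison apply to these counts too.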

How the data were processed

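RNA of sorted mouse lung neutrophils was sequenced in 18 libraries of 6 groups, from total RNA with a SMARTer kit. The deposited values are raw counts of reads per gene, made by the authors with featureCounts 1.4.6-p5, Subread and STAR 2.5.1a, per the submitters' processing notes. For these counts, no genome build, annotation or strand setting is given in the sources used here. Reads of a gene and of one antisense to it may therefore be mixed, as may reads of close copies. Of 40757 lines, 276 repeated a gene ID and were counted once. No sample column was left unused.

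The filterByExpr filter by group kept 16575 genes, and edgeR 4.0.16 (R 4.3.3, limma 3.58.1) fitted all 18 libraries with TMM factors, 12 residual degrees of freedom and the robust quasi-likelihood test. There were 7 pairwise comparisons and 2 interactions, and genes passed at a Benjamini-Hochberg adjusted p under 0.05 over all genes tested. The SE is the log2 fold change divided by the square root of F. The scripts were tested on simulated data. Alternatives were DESeq2 1.42.0, RLE factors, library size alone, no filter, only the groups compared, a replicate block and leaving out each library. Further settings of the block (the 6 WT zymosan libraries alone, and leaving out 1 WT number) were chosen after seeing the data. The 33 genes and all other lists were chosen with earlier results of these data known. In each comparison the genes that passed are named, up to 6 with the lowest adjusted p get a value per library, and up to 4 genes of the further pathway lists are named. A few others were named after their values were seen. No share over all genes was computed for counts under an unadjusted p or of log2 differences above 0. The same holds for counts of signs within numbers and of the highest or lowest replicate.

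The titles give CD101pos and CD101neg libraries after zymosan shared replicate numbers. Deviations from the group means correlated between same-numbered WT libraries at r = 0.49, 0.42 and 0.31 across genes, so these numbers were taken to pair the WT libraries. For CGD the values were 0.24, 0.02 and 0.26, so CGD libraries were not taken as paired. The titles number both genotypes alike. This choice was thus made from the same data, without a set cutoff, and the design does not give it. The blocked values given for WT genes come from a fit over the zymosan libraries of both genotypes, each blocked by number.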

Additional observations from a re-analysis of the deposited data

How the results depend on the processing

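The 26 calls of single genes were recomputed under 316 alternatives. None of these calls changed direction, all but 75 of the alternatives kept the call, and 9 calls held in all (Pfkp and Hk1 in CD101neg and Pfkp and Pgd in CD101pos cells between genotypes, Aldoc with zymosan in WT, and Hk2, Pfkp, Pgd and Rpia with zymosan in CGD cells). Counts among the 33 genes moved by over 1.5 times as follows. With only the groups compared, genotype in CD101neg cells gave 3 instead of 7. With library size alone, the sorts in CGD cells gave 1 instead of 4, zymosan in WT 1 instead of 2 and the zymosan interaction 1 instead of 0. Without the filter, zymosan in WT gave 4 and its interaction 2. DESeq2 gave 1 instead of 0 for the sorts in WT, 8 instead of 4 for those in CGD, 4 instead of 2 for zymosan in WT, 2 instead of 0 for the subset interaction and 3 instead of 0 for the zymosan interaction. Leaving out 1 library at a time gave 3 to 11 for genotype in CD101neg and 2 to 4 in CD101pos cells, 0 to 2 for the sorts in WT and 0 to 5 in CGD cells, and 5 to 9 for zymosan in CGD cells. The cause was not tested.

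Pairing by replicate number was tried in 2 ways. With the number as a factor over all 18 libraries, no count among the 33 genes moved by over 1.5 times. With the replicate block within genotype and replicate number over the zymosan libraries, the sorts in WT cells gave 8 instead of 0 (8 also in the WT libraries alone, and 0 to 8 with 1 number left out). No other comparison within WT cells was fitted with this block. For the sorts in CGD cells, where numbers were not taken to pair, the block gave 17 instead of 4. These were 15 higher and 2 lower, where 11% of all genes were higher and 12.4% lower. For the interaction with subset it gave 13, all higher, instead of 0. Each CGD library correlated best with its own number, which is a hint from the data and not the design.

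Among all genes, genotype in CD101neg cells called 2139, but 3985 with library size alone and 1017 with only the groups compared. Genotype in CD101pos cells called 878, but 531 with only the groups compared and 1407 by DESeq2. Genotype in naive cells called 21, but 9, 6 and 110 with library size alone, only the groups compared and DESeq2. The sorts in WT called 73, but 140 without the filter, 0 with only the groups compared, 305 by DESeq2, 1725 with the block and 2183 with it in WT alone. The sorts in CGD called 1218, but 3882 with the block and 2066 by DESeq2. Zymosan in WT called 629, but 1213 by DESeq2. The subset interaction called 141, but 327 without the filter, 63 with only the groups compared, 2204 with the block and 589 by DESeq2. The zymosan interaction called 53, but 13 with library size alone, 119 without the filter and 261 by DESeq2. With 3 libraries a group, a gene that did not pass may still differ, and Rpia, Slc16a1, Pdk1 and Aldoc rest on few counts.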
